A study of Mus musculus with 69 samples.

Results

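The p53 family and its negative regulators were followed here as 6 genes: Trp53, Trp63 and Trp73, which encode the transcription factors p53, p63 and p73, and Mdm2, Mdm4 and Ppm1d, whose products hold p53 in check. They were chosen by their gene symbols, and all 6 were found among the 55367 genes of the count table. The 69 libraries of stranded, poly(A)-selected RNA came from mouse E14Tg2A embryonic stem (mES) cells and from gastruloids, aggregates of mES cells that form cells of the germ layers after a pulse of the Wnt pathway activator CHIR. There were 23 groups of 3 libraries. The 3 libraries of a group came from experiments done at different times, and libraries of different groups shared an experiment. The cells came from 3 clones. WT–mCherry cells carried a histone H2B–mCherry reporter under the EF1α promoter, and WT–emiRFP cells carried H2B–emiRFP670 under the CAG promoter. p53KO–emiRFP cells were a daughter clone of WT–emiRFP with a homozygous frameshift in exon 4 of Trp53, enriched with Nutlin-3a, an inhibitor of the p53–MDM2 contact. At 0 h each clone was grown alone as mES cells. At 48, 72, 96, 120 and 144 h the cells were sorted by reporter from mosaic gastruloids. WT + WT gastruloids had been seeded with 150 WT–mCherry and 150 WT–emiRFP cells, and WT + p53KO gastruloids with 150 WT–mCherry and 25 p53KO–emiRFP cells. All p53KO cells descended from 1 clone, and in gastruloids they were sorted only from WT + p53KO mosaics, so that from 48 h on genotype and kind of mosaic cannot be told apart in the comparison with WT–emiRFP cells.

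p53 is kept scarce in unstressed cells because MDM2, a ubiquitin ligase, binds it and sends it to the proteasome. MDM4 has no strong ligase activity of its own, binds the activation domain of p53 and works in a complex with MDM2, while PPM1D, the phosphatase also called WIP1, removes activating phosphates from p53 and from the kinases above it. Mdm2 and Ppm1d are themselves p53 targets, which closes a negative feedback loop. Among the paralogues, p63 is best known for surface ectoderm and its stem cells, and p73 for multiciliated cells and Cajal–Retzius neurons. Trp73 has an upstream and an internal promoter, and the internal one makes the amino-terminally shortened ΔN form, which can oppose p53.

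On build GRCm38, Trp53 (ENSMUSG00000059552.13) lies on the plus strand of chromosome 11 from 69580359 to 69591873. Ppm1d (ENSMUSG00000020525.17) lies on the same chromosome and strand from 85311244 to 85347066. Mdm2 (ENSMUSG00000020184.15) occupies the minus strand of chromosome 10 from 117688875 to 117710758, Mdm4 (ENSMUSG00000054387.13) the minus strand of chromosome 1 from 132959484 to 133030561, Trp73 (ENSMUSG00000029026.16) the minus strand of chromosome 4 from 154056253 to 154140208, and Trp63 (ENSMUSG00000022510.14) the plus strand of chromosome 16 from 25683763 to 25892102. The coding part of Trp53 exon 4, which holds the frameshift, spans 69587372 to 69587632 and covers codons 36 to 122 of 390 in the longest annotated transcript. The mutation therefore sits inside the coding sequence, downstream of the start codon, and leaves the promoter in place.

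RefSeq promoter windows, from 250 bases before to 50 bases after a start (GRCm38.p6), were available for 7 starts of 5 members. They were searched on both strands for the p53 response element, taken as a pair of p53 consensus decamers that are at most 13 bases apart, each with its central C and G in place and at most 1 mismatch. The decamer reads as its own reverse complement, so that a match on one strand is a match on the other. Such a pair was found in 1 of the 7 windows and in 2.71% of the 32851 RefSeq promoter windows. The window with the pair was that of the internal start of Trp73. Its 250 bases upstream of the start, chr4:154097174-154097423 on the minus strand, are shown because Trp73 differed strongly between genotypes, with the paired decamers in capitals. They had 2 mismatches in all, no bases between them, and lay 66 to 47 bases upstream of the start.
Trp73 internal start: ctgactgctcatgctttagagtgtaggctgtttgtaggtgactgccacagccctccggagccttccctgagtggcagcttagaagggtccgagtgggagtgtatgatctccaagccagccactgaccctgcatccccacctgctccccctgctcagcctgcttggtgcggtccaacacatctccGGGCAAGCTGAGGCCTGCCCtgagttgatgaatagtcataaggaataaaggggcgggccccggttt
A single decamer without mismatch was present in 3 of the 7 windows and in 8.36% of all windows. These 3 matches, in capitals with 10 bases to each side, are shown because they are the only single decamers without mismatch in the 7 windows. They lay 186 to 177 bases upstream of the Mdm2 start (chr10:117710925-117710954, minus strand), 132 to 123 bases upstream of the Ppm1d start (chr11:85311112-85311141, plus strand) and 75 to 66 bases upstream of the Trp53 start (chr11:69580274-69580303, plus strand).
Mdm2: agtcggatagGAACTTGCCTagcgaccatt
Ppm1d: gggcgggggcGAGCTTGCTCttcttgactc
Trp53: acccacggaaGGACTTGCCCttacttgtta
The windows of Mdm4 and of the first Trp73 start held neither. Trp63 and the internal promoter of Mdm2 were not searched here. A match describes letters in these windows and was not tested as a binding site.

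Libraries held 26722541 to 72981570 counts (median 53098728). All values below are counts normalized by size factors over the 69 libraries, and errors are SD over the 3 libraries of a group unless stated. The summed level of 8 pluripotency markers was 206430 to 252970 in mES cells of all 3 clones. At 120 h it was 17777 to 18561 in p53KO–emiRFP cells and 76970 to 88383 in WT–emiRFP cells. In such bulk libraries fewer cells of a type and less RNA per cell cannot be told apart. H2bc14, a histone gene whose count was high in both emiRFP clones, served as a mark of emiRFP cells. WT–mCherry libraries from WT + WT gastruloids held 0.191 to 2.12% of its level in the emiRFP library of the same mosaic, time and replicate number. In WT–mCherry libraries from WT + p53KO gastruloids it held 0.299 to 0.410% at 48 h, 3.01 to 7.46% at 120 h and 2.39, 9.23 and 16.9% at 144 h.

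Per kilobase of annotated exon, the levels kept a stable order in WT cells, except that Mdm4 and Ppm1d changed places over time. Trp53 was the highest member in each of the 51 WT libraries, at a median of 4132 normalized counts per kilobase (3437 to 6801). Mdm2 followed in all 51 at a median of 1730 (1148 to 2692). Mdm4 had a median of 649 and Ppm1d of 616 over all times, and Mdm4 was the higher of the pair in 29 of the 51 libraries. WT libraries of mES cells held 672 to 1224 for Mdm4 and 431 to 615 for Ppm1d, and those of 144 h held 624 to 911 and 488 to 575, without overlap. At 72 and 96 h the means of all WT groups had Ppm1d above Mdm4, with overlapping ranges (630 to 781 against 509 to 658 at 72 h). Trp73 lay below both in every WT library (median 94.8) and Trp63 was lowest (median 1.09). In the 18 p53KO libraries Mdm2 was above Trp53 in all 18, with medians of 708 and 437 per kilobase, and Mdm4 exceeded Ppm1d in 2 of 18. Exon length was taken over all annotated transcripts, so a gene whose long transcripts are unused here is understated.

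**Figure D1:**
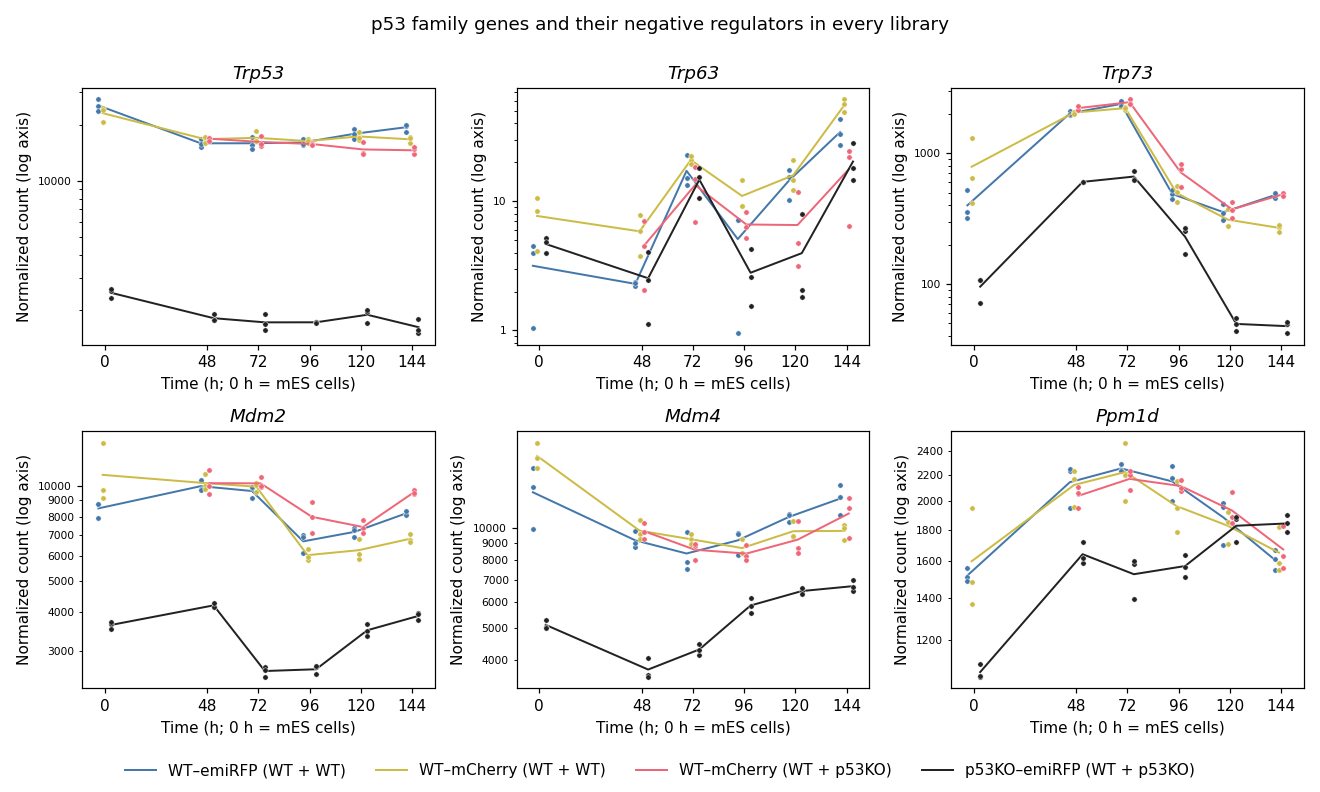
Normalized count (log axis) of the 6 members against time, with 0 h for mES cells. Points are single libraries and lines join the means of 3 libraries in WT–emiRFP, WT–mCherry beside WT, WT–mCherry beside p53KO and p53KO–emiRFP cells, slightly shifted sideways. Trp53, Trp73, Mdm2 and Mdm4 in p53KO–emiRFP cells lie below all WT libraries of the same time, while Ppm1d meets the WT libraries at 120 h and Trp63 reaches at most 61.3 normalized counts.

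The first comparison asked how loss of p53 function changed the family and its regulators, with the parental clone WT–emiRFP as control. Trp53, Trp73, Mdm2 and Mdm4 were lower in p53KO–emiRFP cells at all 6 time points. Ppm1d was lower up to 96 h and slightly higher at 144 h, and Trp63 passed the test only at 120 h. All 5 members with enough counts to be tested were lower at 0, 48 and 96 h, and 5 of 6 were lower at 72 h and at 120 h. The count at 120 h includes Trp63. It passed the filter there through the WT libraries, in which it was higher, so that call is no independent support. At 144 h 4 of 6 were lower and 1 was higher. Of all tested genes, 6.14% differed in mES cells, and from 48 to 144 h 22.1, 29.1, 23.3, 51.0 and 65.4% did. Those that were lower made up 4.16, 11.7, 15.7, 13.8, 23.7 and 32.2% at the 6 times. The members' count was thus furthest from the background in mES cells, where few genes differed at all, and closest to it at 144 h.

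**Figure D2:**
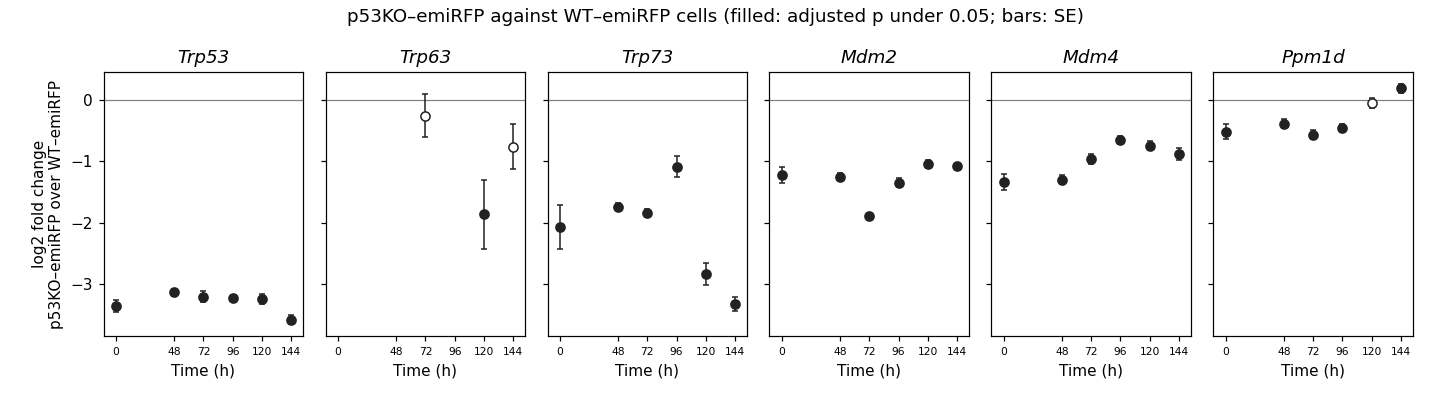
Fitted log2 fold change of p53KO–emiRFP over WT–emiRFP cells for each member against time, with SE bars, filled where the adjusted p was under 0.05. The Trp53 points stay between -3.58 and -3.14, Trp73 dips to -3.32 at 144 h, Mdm2 is lowest at 72 h, Mdm4 at 0 h, and Ppm1d crosses 0 between 120 and 144 h. Trp63 is drawn only at the 3 times at which it had enough counts.

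Trp53 is the mutated gene and its reads check the labels. Beyond 0 and 120 h, WT–emiRFP cells held 15255, 16714 and 15839 normalized counts at 48 h, against 1773, 1904 and 1761 in p53KO–emiRFP cells. At 72 h the values were 15649, 17299 and 14885 against 1684, 1916 and 1562. At 144 h they were 19869, 18455 and 20019 against 1797, 1506 and 1560, and the 3 p53KO libraries of 96 h lay between 1712 and 1728. The 2 genotypes did not overlap at any time, and every library went with its label. What remained of the WT–emiRFP level lay between 8.33% (144 h) and 11.4% (48 h). Pure cultures at 0 h, which were never mixed with WT cells, had 9.74%, so that the remaining reads were present without any WT neighbour. The fold change ranged from 8.80-fold lower at 48 h (log2 -3.14 ± 0.053 SE, adjusted p = 1.07e-15) to 11.99-fold lower at 144 h (log2 -3.58 ± 0.073 SE, adjusted p = 1.18e-12), and it differed between time points (F test, adjusted p = 0.00222).

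Trp73 rose to a peak and fell again. WT–emiRFP mES cells held 526, 317 and 355 normalized counts, against 108, 71.3 and 107 in p53KO–emiRFP mES cells. By 48 h the values were 1941, 2092 and 2005 against 603, 600 and 606. At 72 h they stood at 2371, 2484 and 2282 against 632, 732 and 622. Both genotypes had come down again by 96 h, to 488, 524 and 450 against 252, 266 and 171. The peak at 48 to 72 h was therefore present in both genotypes, at a lower height without p53, and no p53KO library reached the lowest WT–emiRFP library of its time. After 96 h the genotypes moved apart. WT–emiRFP cells had 309, 406 and 346 at 120 h and 452, 479 and 500 at 144 h. p53KO–emiRFP cells had 43.9, 55.3 and 49.2 at 120 h and 49.1, 42.1 and 51.4 at 144 h, the lowest levels of Trp73 in the series. The fold change was 4.21-fold lower at 0 h (log2 -2.07 ± 0.36 SE, adjusted p = 0.0037), 3.59-fold lower at 72 h (adjusted p = 4.15e-11), 2.13-fold lower at 96 h (adjusted p = 0.000346), 7.12-fold lower at 120 h (adjusted p = 1.98e-08) and 9.96% of the WT–emiRFP level at 144 h (log2 -3.32 ± 0.11 SE, adjusted p = 8.99e-11). This loss differed between time points (F test, adjusted p = 1.33e-07). The summed level of 6 germ cell markers was lower in p53KO–emiRFP cells at the late times too, at 2644 to 2723 against 9991 to 11089 in WT–emiRFP cells at 120 h and 3467 to 4134 against 13297 to 14073 at 144 h. That of 6 markers of mesoderm and caudal cells was higher, at 53427 to 55288 against 16313 to 21623 and at 32958 to 39822 against 3810 to 5828. The part of these cells in the Trp73 difference was not tested.

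The gene counts do not separate the full-length and ΔN forms of Trp73, so they do not say which start the reads came from. An antisense gene, Trp73os, shares 280 exon bases with Trp73. It held 0 to 27.6 normalized counts over the 69 libraries (median 4.51), below every Trp73 value given here, and which strand the authors counted is not given in the sources used here. Of 8 markers of multiciliated cells and Cajal–Retzius neurons, where p73 is best known, the summed level was 1011 to 1150 in WT–emiRFP cells and 940 to 1176 in p53KO–emiRFP cells at 72 h. These ranges overlapped at the time at which Trp73 itself peaked. The sums were lower in p53KO–emiRFP cells, without overlap, at 48 h (1631 to 1683 against 1934 to 1970), 96 h (931 to 1204 against 1210 to 1353) and 120 h (1038 to 1206 against 1341 to 1489). By 144 h the order had turned, with 1894 to 2098 in p53KO–emiRFP and 1373 to 1648 in WT–emiRFP cells. The part of these cells in the Trp73 levels was not tested.

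Trp63 was close to the lower end of what these libraries can measure, with 1 to 79 reads per library in WT cells and 1 to 29 in p53KO cells. It passed the filter on low counts at 72, 120 and 144 h and missed it at 0, 48 and 96 h. WT–emiRFP cells held 13.4, 15.2 and 22.9 normalized counts at 72 h, against 15.4, 10.7 and 17.9 in p53KO–emiRFP cells. At 120 h the values were 10.3, 15.5 and 17.6 against 2.04, 1.81 and 8.03. By 144 h they were 27.1, 42.9 and 33.0 against 14.6, 18.04 and 28.1. The genotypes overlapped at 72 and 144 h and were apart at 120 h, where Trp63 was 3.64-fold lower (log2 -1.87 ± 0.56 SE, adjusted p = 0.0123). The gene passed the filter at 120 h through the WT libraries, in which it was higher, so the call is no independent support for a difference. Without replicate 1 or without replicate 2 that call was lost (log2 -1.76, adjusted p = 0.0794, and log2 -1.45, adjusted p = 0.0834), and without replicate 3, whose p53KO library was the highest of the 3, the difference grew to log2 -2.68 (adjusted p = 0.00707). At 144 h the log2 difference was -0.76 ± 0.37 (SE, adjusted p = 0.0834), which passed with the replicate number as a block (adjusted p = 0.0301). The summed level of 10 surface ectoderm markers at 120 h was 4382 to 5487 in WT–emiRFP and 4168 to 4356 in p53KO–emiRFP cells, and at 144 h 3909 to 4417 and 2561 to 2985. It was higher in p53KO–emiRFP cells at 0 h (4765 to 5093 against 4079 to 4374) and at 48 h (6280 to 6423 against 5635 to 5888), and lower at 72 h (2688 to 2840 against 3139 to 3341), where Trp63 itself overlapped, and at 96 h (3853 to 4212 against 4599 to 4766). At 48 h, p53KO–emiRFP cells had 8 of the 10 markers above a level of 10, although Krt5 had no reads, while WT–emiRFP cells had 7. At 72 h the p53KO–emiRFP group had 6 above that level, with no reads of Krt15, and the WT–emiRFP group 7. Levels of single markers in WT–emiRFP cells are not given here, so these zeros are not read as a loss of surface ectoderm. The part of cell composition in the Trp63 levels was not tested.

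Mdm2, the ligase that degrades p53, held 8795, 7929 and 8747 normalized counts in WT–emiRFP mES cells and 3658, 3536 and 3698 in p53KO–emiRFP mES cells. At 72 h the values were 9822, 9170 and 9913 against 2681, 2611 and 2491, and at 144 h 8129, 8095 and 8311 against 3950, 3932 and 3751. The genotypes were apart at all 6 times, with a spread within groups far smaller than the gap. Between 26.9% (72 h) and 48.8% (120 h) of the WT–emiRFP level was left in p53KO cells. The change was 2.34-fold lower at 0 h (log2 -1.23 ± 0.13 SE, adjusted p = 7.97e-05), 3.71-fold lower at 72 h (log2 -1.89 ± 0.055 SE, adjusted p = 2.18e-12) and 2.05-fold lower at 120 h (log2 -1.03 ± 0.064 SE, adjusted p = 1.62e-08). The size of the loss differed between time points (F test, adjusted p = 1.29e-08). The low at 72 h, the end of the CHIR pulse, came from p53KO cells, in which Mdm2 fell 1.61-fold from 48 to 72 h (adjusted p = 1.5e-10), while the WT mean differed by 1.02-fold over the same step (adjusted p = 0.57).

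Mdm4, the second inhibitor in the MDM2 complex, was lower in p53KO cells by a like amount at first and by less later. WT–emiRFP mES cells held 9951, 13354 and 15229 normalized counts, the widest spread of this gene in gastruloid or mES groups of that clone, and p53KO–emiRFP mES cells held 5042, 4982 and 5300. At 96 h the values were 9695, 8276 and 9610 against 5832, 5561 and 6142, and at 144 h 10999, 12403 and 13479 against 6457, 6974 and 6629. No p53KO library reached a WT–emiRFP library at any time. Mdm4 was 2.51-fold lower at 0 h (log2 -1.33 ± 0.13 SE, adjusted p = 4.25e-05), 1.57-fold lower at 96 h (log2 -0.65 ± 0.066 SE, adjusted p = 6.93e-06) and 1.84-fold lower at 144 h (log2 -0.88 ± 0.094 SE, adjusted p = 1.66e-06), and the loss differed between time points (F test, adjusted p = 1.9e-05). A processed pseudogene inside Mdm4, Gm29257, held 2.95 to 23.5 normalized counts over all libraries.

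Ppm1d, the p53 phosphatase gene, had a smaller fitted log2 difference between genotypes than Trp53, Trp73, Mdm2 and Mdm4 at all 6 times, and its sign changed. WT–emiRFP mES cells held 1509, 1487 and 1562 normalized counts and p53KO–emiRFP mES cells 1047, 1098 and 1048. At 72 h the values were 2288, 2244 and 2232 against 1585, 1392 and 1604. By 120 h they overlapped, at 1988, 1701 and 1956 against 1872, 1720 and 1884, and at 144 h they had crossed, with 1614, 1550 and 1668 in WT–emiRFP and 1784, 1841 and 1899 in p53KO–emiRFP cells. The loss was 1.48-fold at 72 h (log2 -0.56 ± 0.077 SE, adjusted p = 6.72e-05), the difference at 120 h was log2 -0.04 ± 0.075 (SE, adjusted p = 0.657), with limits of -0.19 and 0.11 at 2 SE, and the gain at 144 h was 1.14-fold (log2 0.19 ± 0.074 SE, adjusted p = 0.0338). The change in the effect over time passed its own test (F test, adjusted p = 1.24e-07). The gain at 144 h lost its call with TMM normalization, without the low-count filter and without any one replicate, with adjusted p of 0.0508 to 0.165, while all 3 p53KO libraries stayed above the 3 WT–emiRFP libraries. At 0 h the call was lost without replicate 2 or replicate 3 (adjusted p = 0.263 and 0.132).

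Over the 6 members, 5 passed the F test for a p53KO effect that differed between time points, as did 62.5% of all tested genes. Trp63 did not (adjusted p = 0.109).

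The course of the members within a genotype was tested from each time point to the next. In WT cells, averaged over the sorted WT populations, 4 of 6 members changed from 0 to 48 h, 2 from 48 to 72 h, 3 from 72 to 96 h, 4 from 96 to 120 h and 4 from 120 to 144 h. Of all tested genes, 70.3, 66.8, 58.7, 56.9 and 55.5% changed at these steps, so the members were not set apart by how often they changed. The Mdm4 calls from 48 to 72, 96 to 120 and 120 to 144 h were lost without replicate 2 (adjusted p = 0.153, 0.0926 and 0.188). The first was also lost with TMM normalization (0.0626). The Ppm1d call from 96 to 120 h was lost without replicate 3 (0.0631). That of Trp63 was lost without the low-count filter and without replicate 2 or 3 (0.0504, 0.286 and 0.153). Trp53 fell 1.47-fold and Mdm4 1.52-fold on leaving the mES state (adjusted p = 1.49e-16 and 6.49e-13), while Trp73 rose 3.67-fold and Ppm1d 1.34-fold (adjusted p = 1.46e-20 and 7.18e-10). Mdm2 moved little at that step (log2 0.08, adjusted p = 0.168). Leaving out replicate 1 from every group turned that into a call (log2 0.21, adjusted p = 0.000625). From 72 to 96 h Trp73 fell 4.22-fold and Mdm2 1.45-fold (adjusted p = 6.75e-25 and 1.7e-15). After 48 h the fitted mean of Trp53 over the WT populations stayed within 1.03-fold from step to step, with adjusted p of 0.331 to 0.841. The populations did not move together under that mean. At 96, 120 and 144 h WT–emiRFP cells had means of 16098, 17946 and 19448, and WT–mCherry cells beside WT 16386, 17357 and 16754. WT–mCherry cells beside p53KO had 15796, 14765 and 14611. Trp63 was 4.12-fold higher at 72 than at 48 h, 2.29-fold lower again at 96 h and 2.83-fold higher at 144 than at 120 h (adjusted p = 2.36e-08, 6.79e-05 and 2.65e-08). WT libraries held 2 to 8 reads of it at 48 h, 8 to 21 at 72 h and 1 to 16 at 96 h. It entered this fit through the times at which it was high, so its calls, which are among the counts above, are no independent support for a change.

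In p53KO cells 5 of 6 members changed from 0 to 48 h, 2 from 48 to 72 h, 3 from 72 to 96 h, 3 from 96 to 120 h and 2 from 120 to 144 h, beside 59.5, 46.4, 44.6, 35.0 and 22.7% of all tested genes. Trp63 was among those counted from 48 to 72, 72 to 96 and 120 to 144 h. It entered this fit through the times at which it was high, so these calls are no independent support. The Ppm1d call from 96 to 120 h was lost with TMM normalization, without the low-count filter and without any one replicate (adjusted p = 0.0608 to 0.212). That of Trp53 from 120 to 144 h was lost without replicate 2 (log2 -0.12, adjusted p = 0.404). Trp53, Mdm4, Trp73 and Ppm1d, which passed from 0 to 48 h in both genotypes, changed in the same direction in both. How many of all tested genes did so was not counted. Trp53 transcript fell 1.37-fold from 0 to 48 h (adjusted p = 4.34e-07), Mdm4 fell 1.36-fold (adjusted p = 8.35e-05), Trp73 rose 6.36-fold (adjusted p = 7.22e-16) and Ppm1d rose 1.54-fold (adjusted p = 6.41e-09). Mdm2 rose 1.15-fold (adjusted p = 0.0226), a call lost with TMM normalization and without replicate 2 or 3 (adjusted p = 0.0585 to 0.132). From 96 to 120 h Trp73 fell 4.61-fold in p53KO cells (adjusted p = 1.55e-10) and 1.62-fold in WT cells (adjusted p = 1.9e-07). Mdm2 rose 1.33-fold over that step in p53KO cells (adjusted p = 3.38e-05) and by a log2 of 0.01 in WT cells (adjusted p = 0.803), which did not pass. That WT value averages populations that moved in different directions. Mdm2 means at 96 and 120 h were 6677 and 7154.5 in WT–emiRFP cells and 6037 and 6260 in WT–mCherry cells beside WT. They were 7986 and 7411 in WT–mCherry cells beside p53KO.

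The second comparison asked whether WT–mCherry cells carried different levels of these genes beside p53KO cells than beside WT cells. Mdm2 was higher beside p53KO cells from 96 h on, Trp73 was higher and Trp63 lower at 144 h, and Trp53 was slightly lower at 144 h. No member of 5 tested at 48 h and none of 6 at 72 h passed the test, where 0.0736 and 0.559% of all tested genes did. In edgeR, 1 member, Trp73, had an unadjusted p under 0.05 at each of these times (0.0328 and 0.0359), and DESeq2 likewise called 0 members. At 96 h 1 of 5 members passed, against 3.92% of all genes, at 120 h 1 of 6, against 5.94%, and at 144 h 4 of 6, against 25.6%. With the replicate number as a block, the member calls over all 5 times went from 6 to 10. The share of all tested genes that passed with the block was not counted, so this rise is no result about the members.

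Mdm2 in WT–mCherry cells stood at 6323, 5838 and 5952 normalized counts beside WT and 8896, 7964 and 7097 beside p53KO cells at 96 h. At 120 h the values were 5875, 6808 and 6098 against 7795, 7356 and 7082, and at 144 h 6737, 7033 and 6635 against 9715, 9460 and 9511. The groups did not overlap at these 3 times. They did overlap at 48 and 72 h, where the log2 differences were -0.00 ± 0.061 and 0.04 ± 0.052 (SE). Mdm2 was 1.32-fold higher at 96 h (adjusted p = 0.0119), 1.18-fold at 120 h (adjusted p = 0.0386) and 1.41-fold at 144 h (log2 0.49 ± 0.043 SE, adjusted p = 1.97e-05). The effect differed between time points (F test, adjusted p = 0.00149), as it did for 1 of the 6 members and 11.6% of all genes. Leaving out replicate 2 from every group ended this call (adjusted p = 0.108). The call at 96 h was lost without replicate 1 (adjusted p = 0.361) or replicate 2 (adjusted p = 0.124), and that at 120 h without replicate 1 (adjusted p = 0.492) or replicate 3 (adjusted p = 0.138), or with only the compared libraries in the fit (adjusted p = 0.12). At 144 h it held in each alternative, with adjusted p of at most 0.0045. Mesoderm and caudal markers summed to 60021 to 65703 beside WT and 67291 to 68919 beside p53KO cells at 96 h. At 120 h they summed to 20093 to 26449 and 31815 to 33018, and at 144 h they overlapped. Germ cell markers were lower beside p53KO cells at 96 h (4251 to 4629 against 4901 to 5708). At 120 h they were lower (6728 to 7616 against 8451 to 10471), and at 144 h higher (11304 to 13164 against 10613 to 11090). The part of these cells in the Mdm2 difference was not tested.

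Trp73 in WT–mCherry cells was 273, 282 and 250 beside WT and 487, 497 and 473 beside p53KO cells at 144 h. These narrow groups were well apart, with a 1.81-fold difference (log2 0.85 ± 0.094 SE, adjusted p = 8.79e-05). At 96 h the values were 501, 563 and 422 against 759, 821 and 556, which overlapped by 1 library on each side, and the 1.43-fold difference did not pass (log2 0.52 ± 0.16 SE, adjusted p = 0.0899). Same-numbered libraries moved together there, and with the replicate number as a block the difference passed (log2 0.51, adjusted p = 4.58e-05). It also passed in DESeq2 (adjusted p = 0.025), without the low-count filter (adjusted p = 3.57e-05) and without replicate 3 (adjusted p = 0.0126). Trp63 was 48.7, 61.3 and 56.7 beside WT and 6.45, 22.0 and 24.6 beside p53KO cells at 144 h, 3.10-fold lower without overlap (log2 -1.63 ± 0.35 SE, adjusted p = 0.00461). A list of 6 fibroblast markers, among them the collagen genes Col1a1, Col1a2 and Col3a1, went the same way and summed to 3233 to 5141 beside WT and 1074 to 1352 beside p53KO cells. The surface ectoderm markers went the other way, with 3031 to 3290 beside WT and 3401 to 3657 beside p53KO cells. The part of these shifts in the Trp63 level was not tested.

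Trp53 in WT–mCherry cells was 15975, 17254 and 17033 beside WT and 13902, 14784 and 15145 beside p53KO cells at 144 h, 1.15-fold lower (log2 -0.20 ± 0.065 SE, adjusted p = 0.0404). At 120 h the log2 difference was -0.23 ± 0.077 (SE, adjusted p = 0.0944), which passed without the low-count filter (adjusted p = 0.0138) and with all 69 libraries in 1 fit (adjusted p = 0.0295). The H2bc14 level of these WT–mCherry libraries was raised at the same times, to 3.01 to 7.46% of the emiRFP level at 120 h and 2.39 to 16.9% at 144 h. When RNA of the emiRFP library of the same replicate number was subtracted in proportion to H2bc14, the Trp53 difference at 144 h shrank to log2 -0.06 (adjusted p = 0.513) and that at 120 h to -0.16 (adjusted p = 0.247). Under the same subtraction the differences of the other called members at 144 h became larger: log2 0.59 for Mdm2 (adjusted p = 1.11e-05), 1.00 for Trp73 (adjusted p = 2.04e-05) and -1.69 for Trp63 (adjusted p = 0.00447). The Trp53 call was also lost with TMM normalization (adjusted p = 0.0822), with the compared libraries alone (adjusted p = 0.051) and without any one replicate (adjusted p = 0.0743, 0.178 and 0.113 without replicate 1, 2 and 3). Mdm4 and Ppm1d did not pass at any time beside p53KO cells, with log2 differences from -0.11 to 0.17. Without replicate 1, Mdm4 at 144 h passed (log2 0.31, adjusted p = 0.0306, against 0.17 and 0.188 with all replicates). For Ppm1d at 144 h the limits at 2 SE were -0.13 and 0.17.

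**Figure D3:**
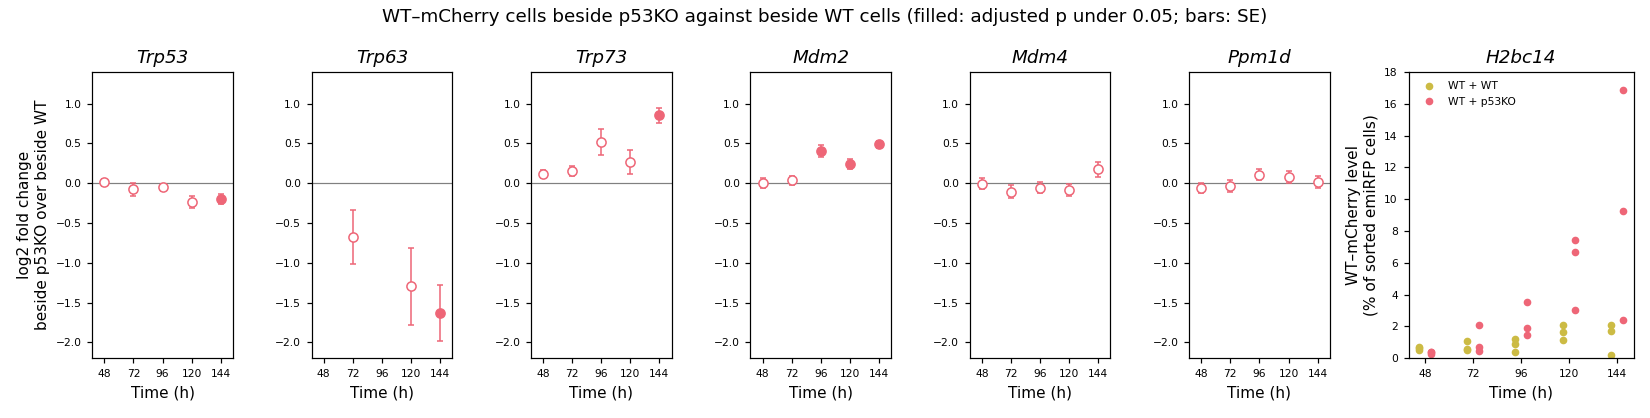
Fitted log2 fold change of WT–mCherry cells beside p53KO over beside WT cells against time for each member (SE bars, filled where the adjusted p was under 0.05), and, on the right, the H2bc14 level of each WT–mCherry library as a percent of the emiRFP library of the same mosaic, time and replicate number. Mdm2 is filled from 96 h on, Trp73 and Trp63 at 144 h in opposite directions, and H2bc14 reaches 16.9% in 1 library beside p53KO cells at 144 h.

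The third comparison, WT–emiRFP against WT–mCherry cells, gave the difference between 2 clones that both have intact Trp53. None of the members tested (5 at 0, 48 and 96 h, 6 at 72 and 120 h) passed at 0, 48, 72, 96 or 120 h, where 11.1, 8.9, 7.64, 2.15 and 1.22% of all tested genes did. In edgeR the unadjusted p was under 0.05 for 3 members at 0 h (Trp73, Mdm2 and Mdm4), 1 at 120 h (Mdm2) and 0 at the other times, and DESeq2 called 0 at these times. The log2 differences of these 3 at 0 h were -0.99, -0.35 and -0.36. They passed with all 69 libraries in 1 fit (adjusted p = 3.58e-05, 0.000489 and 0.00341) and without the low-count filter (7.04e-09, 0.00936 and 0.00564). Trp73 at 0 h also passed without replicate 1 (log2 -0.69, adjusted p = 0.0286), and Mdm4 at 72 h without replicate 3 (log2 -0.29, adjusted p = 0.0167). At 144 h 4 of 6 passed, against 23.8% of all genes, each higher in WT–emiRFP cells: Trp73 1.78-fold (adjusted p = 9.32e-05), Mdm4 1.25-fold (adjusted p = 0.0216), Mdm2 1.202-fold (adjusted p = 0.00078) and Trp53 1.16-fold (adjusted p = 0.0287). The calls of Mdm4 and Trp53 were lost without 1 replicate or another, with adjusted p up to 0.186 and 0.144. With the replicate number as a block, Mdm4 passed at 48 h (adjusted p = 0.00986), Mdm2 and Ppm1d at 96 h (adjusted p = 0.0419 and 0.0437), Mdm2 at 120 h (adjusted p = 0.0304) and Trp63 at 144 h (adjusted p = 0.0373), and the calls over all times went from 4 to 10. Here too the share of all tested genes that passed with the block was not counted. This comparison and that by neighbour share the WT–mCherry libraries of WT + WT gastruloids. At 144 h Trp73 had means of 268 in those cells, 477 in WT–emiRFP cells of the same kind of gastruloid and 486 in WT–mCherry cells beside p53KO, so the WT–mCherry cells beside WT were the group that stood lower than both others. That group also stood apart at 144 h in markers of other cells. Its fibroblast markers summed to 3233 to 5141, against 1151 to 1737 in WT–emiRFP cells and 1074 to 1352 in WT–mCherry cells beside p53KO, and its multiciliated and Cajal–Retzius markers to 2205 to 3153, against 1373 to 1648 and 1336 to 1560. Its germ cell markers summed to 10613 to 11090, against 13297 to 14073 and 11304 to 13164. The part of these cells in the differences of the members was not tested.

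One mES culture stood apart. In WT–mCherry mES cells Trp73 was 1297, 649 and 416 normalized counts in replicates 1, 2 and 3, Mdm2 13682, 9700 and 9143, and Ppm1d 1951, 1484 and 1369. Replicate 1 was the highest of the 3 for all 5 members tested at 0 h and for 25 of 30 p53 target genes, against 36.0% of all tested genes. The ratio of replicate 1 to the mean of the others had a median of 1.34 over the target genes and 1.00 over all tested genes.

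The genes whose course was most like that of each member over the 23 group means were named by Pearson correlation of log2 values, as a description over groups that share clones and times. The means span both genotypes, and Trp53 is the mutated gene. Such an r does not separate a difference between genotypes from a course over time. Correlations within a genotype were not computed. For Trp53 these were Anxa8, D630023F18Rik, Eda2r, Gm37795 and Ptprv (r = 0.975 to 0.984). For Trp73 they were Cyyr1, Gm10252, Aen, Nr3c1 and Siva1 (r = 0.937 to 0.953). For Mdm2 they were Ptprv, Cpt1c, Lif, D630023F18Rik and Trp53inp1 (r = 0.945 to 0.961). For Mdm4 they were Txlnb, 2900052L18Rik, Ptp4a3, Mmrn2 and Mgmt (r = 0.901 to 0.939), for Ppm1d Traf4, Plxdc2, Naa80, Sh3rf3 and Tef (r = 0.903 to 0.918), and for Trp63 Spaca6, Fam181b, Abcb10, Npnt and Chrnb1 (r = 0.819 to 0.874). Among the members themselves, Trp53 and Mdm2 had r = 0.907, Trp53 and Mdm4 0.873, Trp53 and Trp73 0.579 and Trp53 and Ppm1d 0.448 over the 23 means. By Spearman correlation 8 of the 30 names recurred.

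The rest of the p53 network was read from 4 lists, chosen with earlier results of these data known. Among 30 p53 target genes, 24 were lower and 2 higher in p53KO–emiRFP cells at 72 h, with a median log2 fold change of -1.81, while the median over all tested genes was 0.01. Eda2r, a gene of the TNF receptor family, was 3508 in WT–emiRFP and 32.2 in p53KO–emiRFP cells (log2 -6.71 ± 0.21 SE, adjusted p = 4.25e-12), and Plk2, a kinase gene, was 5789 and 148 (log2 -5.27 ± 0.091 SE, adjusted p = 1.29e-14). Pmaip1, which encodes the pro-apoptotic protein NOXA, was higher instead, at 3656 and 7393 (log2 1.02 ± 0.068 SE, adjusted p = 3.22e-08), as was the metabolic regulator Tigar (log2 0.15 ± 0.053 SE, adjusted p = 0.042). In mES cells 22 of the 30 passed the test, all of them lower. Medians of the other lists lay near 0. Of 18 ligases, deubiquitinases and cofactors 5 were higher and 4 lower at 72 h (median 0.05), of 11 measured kinases 4 and 1 (median 0.05), and of 17 cofactors and modifiers 4 and 1 (median 0.08), where 29.1% of all tested genes passed.

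Within those lists the genes named by size at 72 h changed by at most 0.53 on the log2 scale, in size. Cdkn2a, which encodes the MDM2 inhibitor ARF, was lower (630 and 435 normalized counts in WT–emiRFP and p53KO–emiRFP cells, log2 -0.53 ± 0.10 SE, adjusted p = 0.00149), as were the nucleolar gene Nop53 (log2 -0.26, adjusted p = 0.0106), the kinase gene Dapk1 (log2 -0.45, adjusted p = 1.22e-05) and Ppp1r13l, whose product iASPP inhibits p53 (log2 -0.40, adjusted p = 0.0038). Higher were the histone chaperone gene Daxx (log2 0.27, adjusted p = 0.00242), the ligase gene Cop1 (log2 0.26, adjusted p = 0.00272), the checkpoint kinase gene Chek1 (log2 0.38, adjusted p = 0.000437), Mapk14 for the kinase p38α (log2 0.26, adjusted p = 0.000587), and the methyltransferase genes Kmt5a (log2 0.37, adjusted p = 0.000218) and Prmt5 (log2 0.27, adjusted p = 0.00551). At 0 h, 1 of 18, 1 of 11 and 2 of 17 genes of these 3 lists passed the test, beside 6.14% of all tested genes.

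By neighbour at 144 h, 14 of the 30 target genes passed the test in WT–mCherry cells, all of them higher beside p53KO cells (median log2 0.23, against -0.03 over all genes). Against the same WT–mCherry libraries beside WT, WT–emiRFP cells, which had no p53KO neighbours, had 9 of the 30 target genes called, also all higher (median log2 0.17). Beside p53KO cells 8 target genes were higher and 1 lower at 96 h, and all 7 that passed at 120 h were higher, where 3.92 and 5.94% of all genes passed. DESeq2 called 11 and 7 at these times. In the comparison of the WT clones 1 was higher and 1 lower at 96 h (median log2 0.10), where 10 had an unadjusted p under 0.05, against 18 by neighbour, and DESeq2 called 6. At 120 h 0 passed in edgeR (median log2 0.10), where 4 had an unadjusted p under 0.05, against 15 by neighbour, and DESeq2 called 1. Whether these counts differ between the 2 comparisons was not tested. Fas, the death receptor gene, was 55.7 beside p53KO and 21.2 beside WT cells at 144 h (log2 1.35 ± 0.32 SE, adjusted p = 0.00865), and Perp, a gene of desmosomes and cell death, was 688 and 342 (log2 1.01 ± 0.19 SE, adjusted p = 0.00196). Of all tested genes 25.6% passed at 144 h, beside 6 of 18 ligases and cofactors, 1 of 11 kinases and 5 of 17 cofactors and modifiers. Of the ligases and cofactors 4 were higher, among them Nop53 (log2 0.37, adjusted p = 0.00472) and the ribosomal protein gene Rpl23, whose product binds MDM2 (log2 0.29, adjusted p = 0.0232), and 2 lower, Cop1 (log2 -0.24, adjusted p = 0.0135) and the deubiquitinase gene Otub1 (log2 -0.20, adjusted p = 0.0173). Of the kinases 1 was lower, Hipk2 (log2 -0.45, adjusted p = 0.00197). Of the cofactors 2 were higher, Ppp1r13l (log2 0.42, adjusted p = 0.00859) and the p53 stimulator gene Ppp1r13b (log2 0.29, adjusted p = 0.0336), and 3 lower, including the mesenchymal factor gene Twist1 (log2 -0.90, adjusted p = 0.00127) and the deacetylase gene Hdac1 (log2 -0.21, adjusted p = 0.00679).

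**Figure D4:**
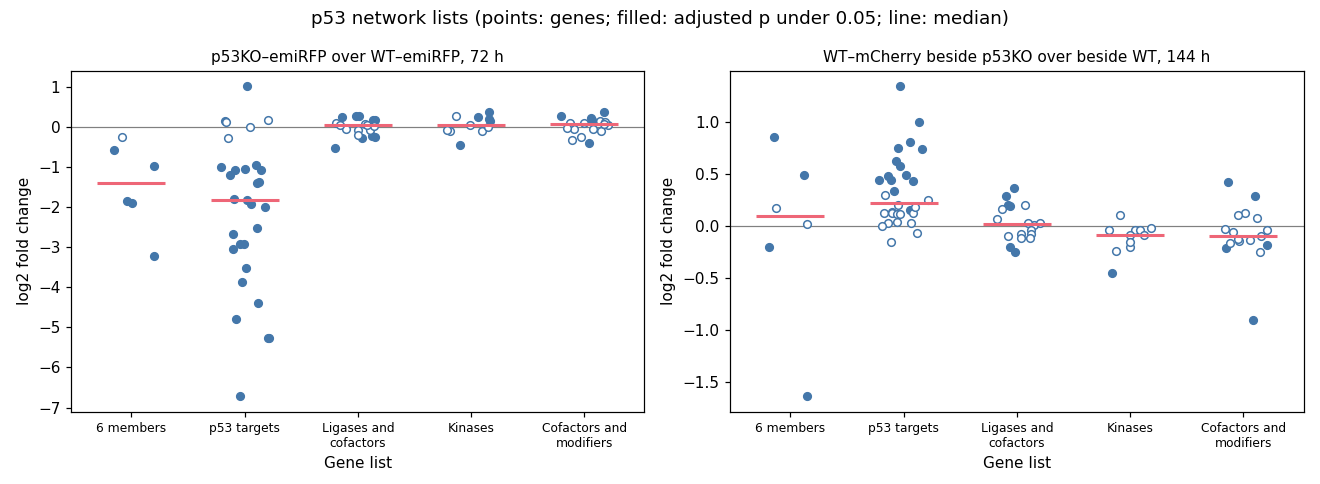
Fitted log2 fold change of each member and of each gene in 4 lists of the p53 network, in p53KO–emiRFP over WT–emiRFP cells at 72 h (left) and in WT–mCherry cells beside p53KO over beside WT cells at 144 h (right). Points are genes, filled where the adjusted p was under 0.05, and lines are list medians, which are -1.81 and 0.23 for the p53 targets and between -0.10 and 0.08 for the ligases, kinases and cofactors.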

How the data were processed

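The authors trimmed the reads with Trim Galore 0.6.7, aligned them to GRCm38.p6 with STAR 2.7.11b and deposited raw counts of uniquely mapped reads per gene for the 69 libraries. The strand setting of the count is not given in the sources used here. From these counts, median-of-ratios size factors were computed over all libraries. Genes with low counts were removed per fit by edgeR's group-wise filter, and groups were compared with edgeR 4.0.16 (R 4.3.3) by its quasi-likelihood test, 1 fit per time point and 1 fit of all libraries for courses and F tests. P-values were adjusted by Benjamini-Hochberg over all tested genes, at a threshold of 0.05. Intervals span 2 SE. The scripts were tested on simulated data. The members and lists were chosen with earlier results of these data known. Genes named from a list were up to 2 called genes with the largest changes in each direction, and genes of like course were the 5 with the highest Pearson correlation among genes with a mean of at least 50 normalized counts. The alternatives were TMM, DESeq2 1.42.0, no filter, other sets of libraries in the fit, each replicate left out, a replicate block and subtraction of emiRFP RNA by H2bc14. Whether a replicate number marks the same experiment in each group is not given in the sources used here. The deviations of same-numbered libraries from the group means correlated above 0.1 in every pair in 14 of 17 comparisons (r = 0.0377 to 0.688). The block was therefore read as pairing in those 14.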

Additional observations from a re-analysis of the deposited data

Results flagged for a closer look

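The difference between p53KO–emiRFP and WT–emiRFP cells depended on the time point for 5 members, by the F test of edgeR over the 6 times. The adjusted p was 0.00222 for Trp53, 1.33e-07 for Trp73, 1.29e-08 for Mdm2, 1.9e-05 for Mdm4 and 1.24e-07 for Ppm1d. These members are set beside 62.5% of all tested genes that passed the same test. The difference of WT–mCherry cells by neighbour depended on the time point for Mdm2 (adjusted p = 0.00149), a test passed by 11.6% of all tested genes, and leaving out replicate 2 from every group ended that call (adjusted p = 0.108).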

How the results depend on the processing

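Of 166 tests on the members, 78 passed, and 61 of these passed under each alternative run for them. Of the 88 that did not pass, 67 stayed so throughout. No difference that passed changed its direction. The count of members called by neighbour was 6 and became 9 without the low-count filter and 10 with the replicate block. Leaving out 1 replicate from every group gave 4 to 5. Between the WT clones the count of 4 became 7 without the low-count filter, 10 with the replicate block and 7 with all 69 libraries in 1 fit, and 2 to 4 when 1 replicate was left out. The neighbour effect differed between times for 1 member, for 2 without the filter and for 0 to 1 when 1 replicate was left out. Of the 30 genes of like course, 8 were named again by Spearman correlation. The share of all tested genes that passed under the alternatives was not counted, so shifts in the counts of calls are no result about the members. The cause of these shifts was not tested. Where 1 of the 3 pairs of same-numbered libraries correlated at less than 0.1, the block gave calls for Trp53 (adjusted p = 0.0016), Trp63 (0.0396) and Trp73 (0.0395) in WT–mCherry cells by neighbour at 120 h and for Trp73 between the mES clones (0.0127). For steps between time points, where the pairing was not checked, it gave calls for Ppm1d from 72 to 96 h in WT cells (0.0212) and Mdm4 from 48 to 72 h in p53KO cells (0.028). Low counts limit Trp63, and all p53KO values rest on 1 clone.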
